A study of Mus musculus with 9 samples.

Results

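The transcripts described here are those of 9 genes that carry a TGF-β signal from the cell's own ligand to the nucleus, in murine Tc17 cells, the CD8+ T cells that make IL-17. They are the ligand Tgfb1, the receptors Tgfbr1 and Tgfbr2, the signal transducers Smad2, Smad3 and Smad4, the inhibitor Smad7 and the co-repressors Ski and Skil. Members were the genes whose symbol in the expression table equals one of these names, and all 9 were found among 41388 genes. RNA-Seq was performed on 9 libraries, 3 in each of 3 groups. Naive CD62L+CD44-CD8+ T cells of C57BL/6 mice aged 8 to 12 weeks, from lymph nodes and spleens, were cultured for 48 h with the solvent alone (Ctrl), with 20 µM dimethyl fumarate (DMF), a drug for multiple sclerosis, or with 20 µM DMF and 50 µM reduced glutathione (DMF + GSH). By the wording of the labels, the solvent, DMSO at 0.2%, was in the cultures of every group. All groups, Ctrl included, shared the Tc17 medium, which held recombinant TGF-β at 0.5 ng/ml, IL-6 at 30 ng/ml, IL-2 at 50 U/ml and an antibody to IFN-γ at 5 µg/ml, over plate-bound anti-CD3 at 5 µg/ml with soluble anti-CD28 at 0.5 µg/ml. The cells therefore met TGF-β in every group, and there was no group without it. The libraries are numbered as replicates 1 to 3, replicate 1 of each group belongs to batch 1 of the sample preparation, and replicates 2 and 3 belong to batch 2. The labels do not name the culture or mouse behind each replicate, whereas the study describes its replicates in general as biological and these values as combined from several experiments. The p-values measure the spread between these samples.

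TGF-β binds the type II receptor TGFBR2, which recruits and phosphorylates the type I receptor TGFBR1. The activated type I receptor phosphorylates SMAD2 and SMAD3, which join SMAD4 and enter the nucleus. SMAD7 is induced by the signal and dampens it at the receptor, whereas SKI and SKIL (also called SNON) hold SMAD complexes in a repressed state. In CD8+ T cells TGF-β restrains the cytotoxic program, and together with IL-6 it gives rise to IL-17-producing cells.

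Promoter sequence is shown for the genes that differed between groups and for which a RefSeq window is shown here, so that the start of the ligand and of both receptors can be compared. RefSeq windows (GRCm38.p6) were matched by symbol for 5 of the 9 genes. Each sequence is the 250 bases just before the annotated start, 5′ to 3′ on the strand of the gene, and capitals mark matches to one of the motifs below.

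Tgfb1, chr7:25686752-25687001, plus strand: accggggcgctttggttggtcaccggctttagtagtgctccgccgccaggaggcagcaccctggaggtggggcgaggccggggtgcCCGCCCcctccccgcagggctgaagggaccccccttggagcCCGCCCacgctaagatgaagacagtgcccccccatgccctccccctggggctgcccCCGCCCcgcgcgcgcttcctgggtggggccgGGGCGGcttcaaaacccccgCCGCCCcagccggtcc

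Tgfbr1, chr4:47352972-47353221, plus strand: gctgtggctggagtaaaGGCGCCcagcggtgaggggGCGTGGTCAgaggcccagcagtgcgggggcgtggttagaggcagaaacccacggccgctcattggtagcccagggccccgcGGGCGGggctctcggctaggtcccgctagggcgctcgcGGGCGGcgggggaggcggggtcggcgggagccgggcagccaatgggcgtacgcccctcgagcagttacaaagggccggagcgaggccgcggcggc

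Tgfbr2, chr9:116175364-116175613, minus strand: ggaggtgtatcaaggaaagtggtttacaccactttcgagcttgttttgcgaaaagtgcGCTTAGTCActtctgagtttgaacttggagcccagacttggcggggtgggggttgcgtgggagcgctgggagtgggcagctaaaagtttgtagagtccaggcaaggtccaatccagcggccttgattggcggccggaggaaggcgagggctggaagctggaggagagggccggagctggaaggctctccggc

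Smad3, chr9:63757995-63758244, minus strand: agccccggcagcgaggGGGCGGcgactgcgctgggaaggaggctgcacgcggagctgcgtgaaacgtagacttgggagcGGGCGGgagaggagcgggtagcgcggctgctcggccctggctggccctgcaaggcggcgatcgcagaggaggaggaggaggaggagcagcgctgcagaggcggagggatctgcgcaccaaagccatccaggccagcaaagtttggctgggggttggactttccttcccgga

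The motifs were searched on both strands of the 250 bases. They were the SMAD box CAGACA, the SMAD palindrome GTCTAGAC, the GC-rich SMAD site GGCGCC, the AP-1 site TGANTCA, the core of the antioxidant response element TGACNNNGC and the GC box GGGCGG. The SMAD box and the palindrome share the letters AGAC, the AP-1 site and the antioxidant core share TGA, and the GC box and the GC-rich SMAD site share GGCG, so that matches of a pair can overlap. The Tgfbr1 and Tgfbr2 windows each held 1 antioxidant core, written GCGTGGTCA and GCTTAGTCA on the gene's strand, which begin 214 and 192 bases before the start. Of all 32536 windows of the same length, 10.2% held this core. The Tgfb1 window held 5 GC boxes, and the Tgfbr1 and Smad3 windows held 2 each. The Tgfbr2 window held none. At least 1 GC box was present in 33% of all windows, which is a share of windows and not a number per window. The windows behind this share were not matched for GC content. The GC-rich SMAD site, present in 9.65% of windows, was matched once in the Tgfbr1 window. It was also matched once in the window of Ski, which is not printed because Ski was not called. The Ski window held 5 GC boxes as well. No SMAD box (17% of all windows), palindrome (0.169%) or AP-1 site (6.73%) was found in the 4 printed windows or in that of Ski. This says only that these letters are absent there. GC content was 75.2% for Tgfb1, 74.8% for Tgfbr1, 58.4% for Tgfbr2 and 69.2% for Smad3, with a median of 52.4% over all windows. These are matches of letters and not binding sites.

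The deposited values are read counts divided by a factor for each library, called normalized counts here. Depth ranged from 7671772 reads (Ctrl replicate 3) to 14511926 (DMF + GSH replicate 2), and each of the 9 genes had between 268 and 4296 reads per library. T cell markers (Cd3e, Cd3d, Thy1, Cd8a and Cd8b1) summed to 25954 to 30718 normalized counts in Ctrl, 27750 to 31542 with DMF and 25880 to 32063 with DMF + GSH, and Cd4 was between 0 and 4.4. The 21 markers of other cells summed to 166 to 330 in Ctrl, 98.7 to 126 with DMF and 146 to 190 with DMF + GSH, with Pf4, Hbb-bs and Hba-a1 at 0 in every library. The highest sum belonged to Ctrl replicate 3, where the myeloid genes Lyz2 and Csf1r reached 119 and 58.3. The sum of these markers was lower with DMF. By cell type, the Ctrl and DMF ranges overlapped for myeloid (69.6 to 260 against 54 to 70.2), B cell, dendritic, red cell and CD4 markers. They did not overlap for NK cell, platelet and stromal markers. The part of these markers in the results was not tested. In RNA from bulk cultures, fewer cells that express a gene and less RNA of it per cell cannot be told apart.

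Within the libraries, levels of different genes can be compared only per exonic length. On the scale of normalized counts per kb of exon, the ligand Tgfb1 ranked first in every group, at 593 ± 64.3 (SD, n = 3) in Ctrl, 748 ± 24 with DMF and 628 with DMF + GSH. Ski followed at 465 in Ctrl, and its libraries did not overlap with those of Tgfb1. Smad4 (275), Skil (272), Tgfbr2 (246), Tgfbr1 (176) and Smad7 (151) came next in Ctrl, and each overlapped with its neighbour in that order. Smad3 and Smad2 were lowest, at 76.9 each, and overlapped. With DMF the order of the means differed in 3 neighbouring pairs, all of which overlapped in Ctrl, where Smad3 and Smad2 had equal means. Skil (283) stood above Smad4 (253) without overlap, though narrowly, with a lowest Skil library of 256 and a highest Smad4 library of 254. Tgfbr1 (223) stood above Tgfbr2 (186), though their libraries overlapped, and Smad2 (91.8) stood above Smad3 (60.1) without overlap. With DMF + GSH, Tgfbr2 (238) was again above Tgfbr1 (163) and Smad2 (78.8) was above Smad3 (71.2), and both pairs overlapped. Skil (267) remained above Smad4 (264), with overlap.

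**Figure D1:**
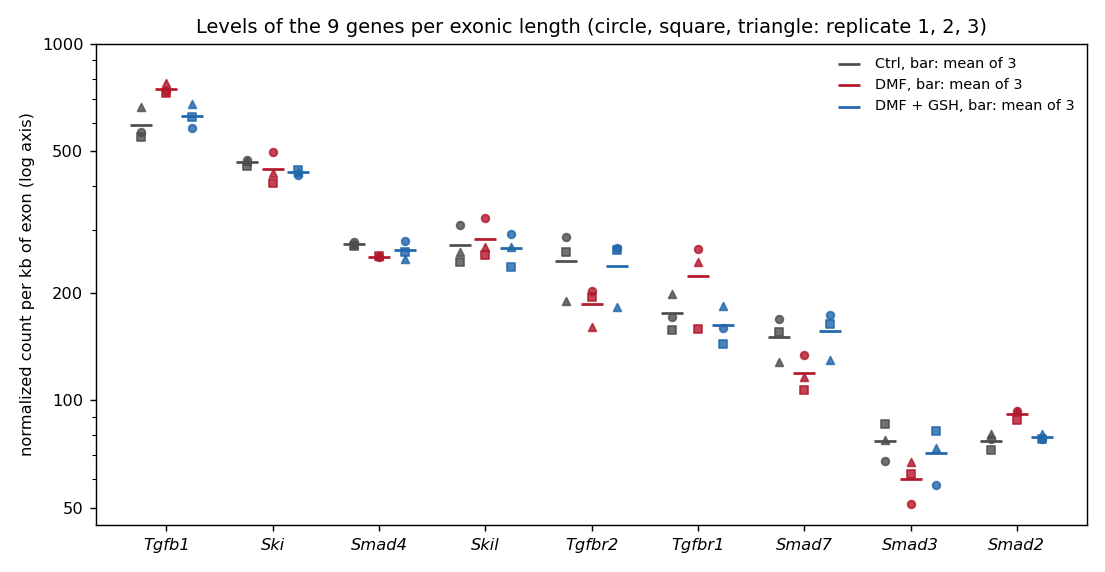
Normalized count per kb of exon (log axis) of the 9 genes in Ctrl, DMF and DMF + GSH; circles, squares and triangles are replicates 1, 2 and 3, and bars are means of 3 libraries. Tgfb1 is highest in each group, and the DMF means of Smad2 (91.8) and Smad3 (60.1) separate while those in Ctrl are both 76.9.

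The first comparison asked what DMF did to these transcripts. Compared to Ctrl, DMF-treated Tc17 cells had more Tgfb1 and Smad2 RNA and less Smad3 and Smad7 RNA, with fitted changes between 1.19-fold and 1.27-fold upward and to 0.78 or 0.79 of Ctrl downward. The estimates of the receptors had opposite signs, Tgfbr1 up and Tgfbr2 down. Tgfbr2 was lower in all 3 replicate numbers, whereas Tgfbr1 was nearly unchanged in replicate 2 (a log2 difference of 0.01). Neither was called with the batch term over all 9 libraries, whereas both were called when the replicate number entered the model. Smad4, Ski and Skil did not pass the test in either model. A gene was called at a limma adjusted p under 0.05 over all 11599 genes tested, with group and batch in the model. By this rule 4 of the 9 genes (44.4%) were called, 2 higher and 2 lower, against 28.0% of all genes tested (14.6% higher and 13.3% lower). When the replicate number replaced the batch in the model (the replicate block), 6 of 9 (66.7%) were called, against 45.0% of all genes. No member passed the limits the study used, an adjusted p under 0.01 with a log2 fold change of 0.75 or more in either direction, which 2.89% of all genes passed. The median absolute log2 fold change was 0.31 over the 9 genes and 0.23 over all genes tested. The calls with the batch term changed when single libraries were left out. When any of 4 libraries was left out (Ctrl replicate 1 or 2, DMF replicate 1 or 3), 0 of the 9 genes were called, whereas 5 were called when Ctrl replicate 3 was left out. The share of all genes called moved in the same way, to 5.41%, 10.0%, 0.948% and 8.22% in those 4 fits and to 32.7% without Ctrl replicate 3. In the fit with the replicate block, leaving out any 1 library left 5 or 6 called, with 35.4% to 47.1% of all genes called in the same fits.

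**Figure D2:**
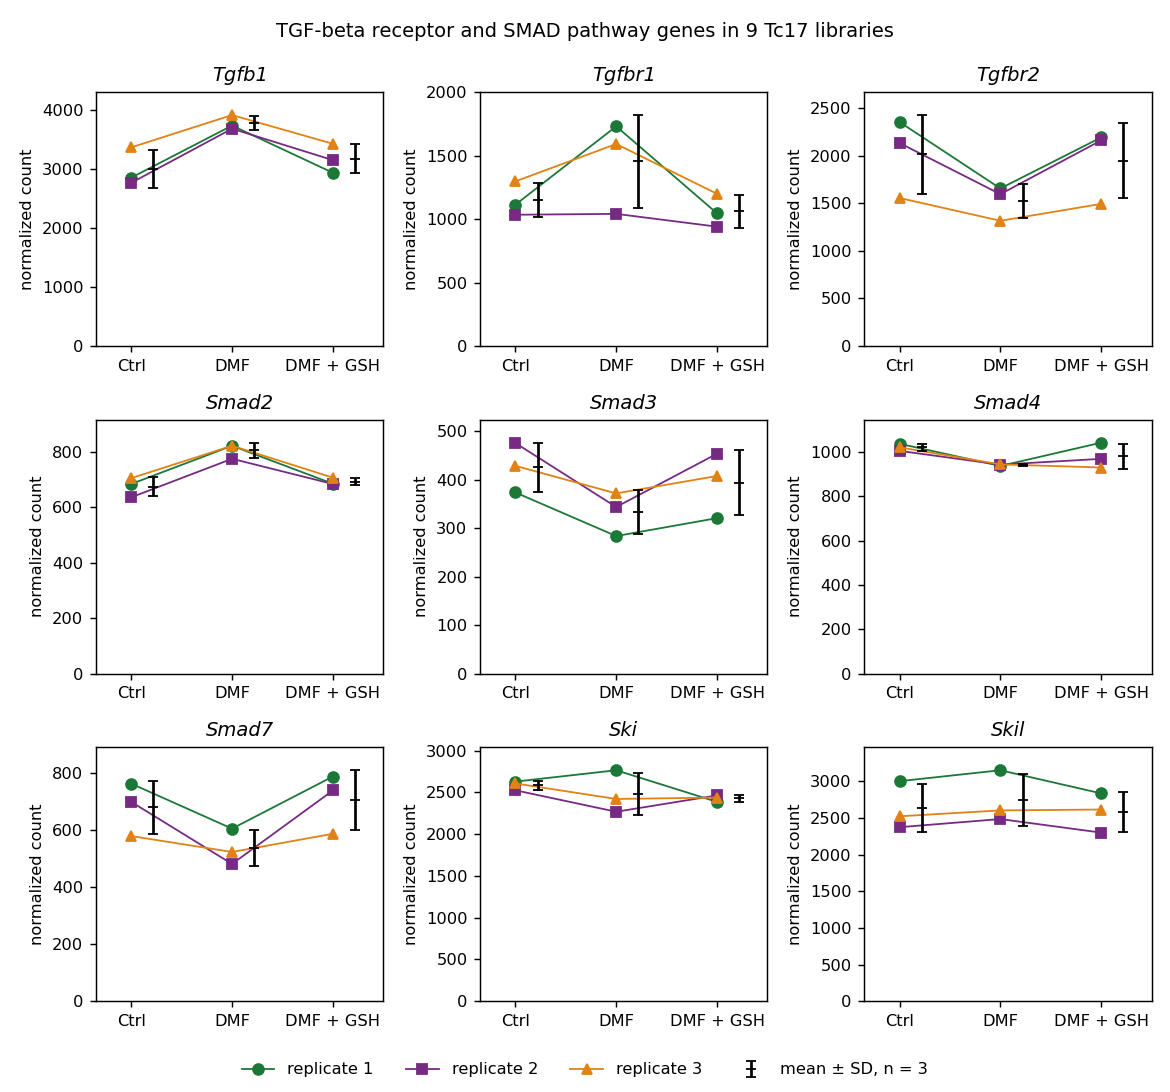
Normalized counts of each gene in the 9 libraries, with lines joining libraries of the same replicate number and black bars giving the mean and SD of 3. Tgfb1 and Smad2 peak with DMF in each replicate number, Tgfbr2, Smad3 and Smad7 dip, and Skil is highest in replicate 1 of every group.

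Tgfb1 encodes the ligand itself, which T cells secrete in a latent form. The gene (ENSMUSG00000002603) lies at chr7:25687002-25705077 on the plus strand of GRCm38. Normalized counts were 2849, 2762 and 3362 in Ctrl, 3731, 3678 and 3909 with DMF and, with added GSH, 2932, 3146 and 3423, for replicates 1, 2 and 3. All DMF libraries were above all others. Tgfb1 rose with DMF by 0.34 on the log2 scale (SE 0.0827, 95% CI 0.16 to 0.52, adjusted p = 0.0165), from 2991 ± 324 to 3773 ± 121 (SD, n = 3), and the differences within replicate numbers 1, 2 and 3 were 0.39, 0.41 and 0.22. As with every gene, the fold change refers to log2(normalized count + 1).

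Tgfbr1 encodes the type I receptor kinase (ENSMUSG00000007613, chr4:47353222-47414931, plus strand). Ctrl libraries held 1114, 1035 and 1298 normalized counts, DMF libraries 1732, 1042 and 1593, and DMF + GSH libraries 1046, 941 and 1200. Replicates 1 and 3 were higher with DMF, whereas replicate 2 differed by 0.01 on the log2 scale, so that the groups overlapped. The fitted difference was 0.31 (SE 0.174, CI -0.07 to 0.70, adjusted p = 0.199), and with the replicate block the same difference had an SE of 0.087 and an adjusted p of 0.0065. Leaving out Ctrl replicate 1 (difference 0.23) or DMF replicate 1 (0.16) ended this call. With the batch term Tgfbr1 was called when DMF replicate 2 was left out, at a difference of 0.54 (adjusted p = 0.0123).

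Tgfbr2 encodes the type II receptor, which binds the ligand (ENSMUSG00000032440, chr9:116084293-116175360, minus strand). The counts were 2356, 2135 and 1557 in Ctrl, 1657, 1597 and 1317 with DMF and, with added GSH, 2194, 2163 and 1495. Replicate 3 was the lowest of each group, and within each replicate number the DMF library was below both others. The fitted difference was -0.39 (SE 0.151, CI -0.73 to -0.05) with an adjusted p of 0.0799, which became 4.48e-05 with the replicate block. It was also called without the block by DESeq2 (adjusted p = 0.0372) and when Ctrl replicate 3 (0.0224), DMF replicate 2 (0.0468) or DMF + GSH replicate 3 (0.0448) was left out. Within replicate numbers the differences were -0.51, -0.42 and -0.24. In the annotation used here, no exon of either receptor gene overlaps an exon of another gene, which also holds for the other members.

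The opposite course of the receptors was set out as the ratio of Tgfbr2 to Tgfbr1, both per kb of exon. This ratio was chosen after the values were seen and is a description with no test. It was 1.69, 1.65 and 0.96 in Ctrl, 0.76, 1.22 and 0.66 with DMF and, with added GSH, 1.67, 1.84 and 0.99. In each replicate number DMF gave the lowest ratio, and replicate 3 was lowest in every group. The means were 1.43 ± 0.41, 0.88 ± 0.30 and 1.50 ± 0.45 (SD, n = 3), and the Ctrl and DMF libraries overlapped.

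**Figure D3:**
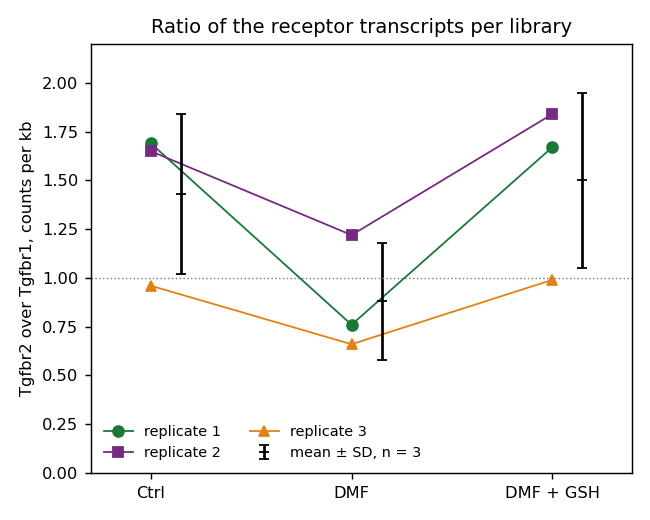
Ratio of Tgfbr2 to Tgfbr1 (normalized counts per kb of exon) in each library, with lines joining the same replicate number and black bars giving mean and SD of 3; the dotted line is a ratio of 1. Each line dips with DMF, to 0.76, 1.22 and 0.66, and the DMF + GSH values of 1.67, 1.84 and 0.99 are close to those of Ctrl.

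Smad2 and Smad3 encode the SMADs that the type I receptor phosphorylates. Smad2 (ENSMUSG00000024563, chromosome 18, plus strand) had 684, 636 and 705 normalized counts in Ctrl, 822, 775 and 822 with DMF and, with added GSH, 685, 684 and 707. The DMF libraries lay above all others, and the remaining 6 lay close together. Smad2 rose by 0.26 (SE 0.0713, CI 0.10 to 0.42, adjusted p = 0.0259), and the replicate numbers gave 0.27, 0.28 and 0.22.

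Smad3 (ENSMUSG00000032402, chr9:63646767-63757994, minus strand) took the opposite direction. Its counts were 374, 476 and 429 in Ctrl, 284, 344 and 372 with DMF and, with added GSH, 321, 454 and 408. Replicate 1 was the lowest of each group, and DMF and Ctrl did not overlap, although the highest DMF library (372) lay close to the lowest Ctrl library (374). Smad3 fell by 0.36 on the log2 scale (fitted log2 fold change -0.36, SE 0.0888, CI -0.56 to -0.16, adjusted p = 0.0174), and within replicate numbers the differences were -0.40, -0.47 and -0.21. It was the gene with the fewest reads among the 9, so that counting noise weighs most on it.

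Smad4 encodes the common partner of both (ENSMUSG00000024515, chromosome 18, minus strand). It had 1036, 1004 and 1020 normalized counts in Ctrl, 936, 942 and 943 with DMF and, with added GSH, 1041, 968 and 929. The Ctrl and DMF libraries did not overlap, but the fitted difference of -0.12 (SE 0.0642, CI -0.26 to 0.03) was not called, with an adjusted p of 0.194 and of 0.13 with the replicate block. Of the 9 genes, 4 (Tgfb1, Smad2, Smad3 and Smad4, 44.4%) had Ctrl and DMF groups that did not overlap, against 41.3% of all genes tested.

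Smad7 encodes the inhibitory SMAD that brings ubiquitin ligases to the receptor (ENSMUSG00000025880, chromosome 18, plus strand). Its normalized counts were 764, 700 and 580 in Ctrl, 606, 482 and 524 with DMF and, with added GSH, 789, 740 and 588. The DMF library was lowest within each replicate number, although DMF replicate 1 exceeded Ctrl replicate 3. Smad7 fell by 0.34 on the log2 scale (fitted log2 fold change -0.34, SE 0.104, CI -0.57 to -0.11, adjusted p = 0.0366), with differences of -0.33, -0.54 and -0.15 within replicate numbers. Besides the 4 libraries named above, leaving out DMF replicate 2 (adjusted p = 0.0773) or DMF + GSH replicate 1 (0.0583) also ended this call. Smad7 and Smad3 were the 2 calls lost without the batch term (adjusted p = 0.0931 and 0.102).

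Ski and Skil encode co-repressors that bind SMAD complexes. Ski (ENSMUSG00000029050, chr4:155154075-155222592, minus strand) had 2588 ± 55.1 normalized counts in Ctrl and 2485 ± 254 with DMF, where its libraries held 2766, 2269 and 2422. The DMF group enclosed every Ctrl library, and the difference was -0.06 (CI -0.22 to 0.10, adjusted p = 0.533). Skil (ENSMUSG00000027660, chr3:31095058-31122577, plus strand) had 3003, 2375 and 2524 in Ctrl and 3152, 2486 and 2604 with DMF. Replicate 1 was highest in each group, and the difference of 0.06 had a CI of -0.09 to 0.21 (adjusted p = 0.535). These intervals leave room for a change of up to 0.22 downward in Ski and 0.21 upward in Skil. Ski was the only one of the 9 genes without the same sign in all 3 replicate numbers, so that 8 of 9 (88.9%) had it, against 66.3% of all genes.

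Replicate 1 of each group forms batch 1 alone, with 1 library per group, so no test could be made within it. Within batch 2, the mean differences of DMF from Ctrl were 0.32 for Tgfb1, 0.15 for Tgfbr1, -0.33 for Tgfbr2, 0.25 for Smad2, -0.34 for Smad3, -0.10 for Smad4 and -0.34 for Smad7. Of these, Tgfbr1 was the one whose difference in batch 1, at 0.64, was much above that in batch 2.

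The second comparison asked whether GSH added together with DMF moved the transcripts away from their level with DMF alone. Smad7 was higher with DMF + GSH than with DMF by 0.39 (1.31-fold, SE 0.104, CI 0.16 to 0.62, adjusted p = 0.0281), and it was the only gene of the 9 called with the batch term (11.1%), against 22.3% of all genes tested (9.99% higher and 12.4% lower). With the replicate block 6 of 9 (66.7%) were called, against 41.5% of all genes. They were Tgfb1, Tgfbr1 and Smad2, which were lower with DMF + GSH, and Tgfbr2, Smad3 and Smad7, which were higher. Both comparisons share the DMF libraries, so that an unusual DMF library moves both, in opposite directions. The Smad7 call with the batch term was lost without Ctrl replicate 1, DMF replicates 1, 2 or 3, or DMF + GSH replicates 1 or 2, and it was kept in each leave-out with the block.

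Among the ligand and receptors, Tgfb1 with DMF + GSH differed from DMF by -0.25 (CI -0.44 to -0.07), with an adjusted p of 0.0515 and of 0.00107 with the block. Every DMF + GSH library of Tgfb1 was below every DMF library. Tgfbr1 differed by -0.43 (CI -0.81 to -0.04, adjusted p = 0.101, and 0.00063 with the block), and replicate 1 fell from 1732 to 1046 normalized counts while replicate 2 went from 1042 to 941. Tgfbr2 differed by 0.34 (CI 0.00 to 0.68, adjusted p = 0.128, and 0.000191 with the block), with 0.40, 0.44 and 0.18 within replicate numbers. In this comparison the receptors differed in opposite directions in each replicate number.

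Among the SMADs, Smad2 differed by -0.22 (CI -0.38 to -0.06, adjusted p = 0.0517, and 0.0107 with the block), and its DMF and DMF + GSH libraries did not overlap. Smad3 differed by 0.24 (CI 0.04 to 0.44, adjusted p = 0.0794). With the block its adjusted p was 0.0318, and leaving out DMF replicate 1 or 2, or DMF + GSH replicate 2 or 3, ended this call. Smad7 moved by 0.38, 0.62 and 0.17 within replicate numbers. Smad4 (0.06, CI -0.09 to 0.20), Ski (-0.03, CI -0.19 to 0.13) and Skil (-0.09, CI -0.24 to 0.07) were not called, and none of them had the same sign in all 3 replicate numbers. Non-overlapping groups were found for 2 of 9 genes (22.2%), Tgfb1 and Smad2, against 38.3% of all genes, and the same sign in all 3 numbers for 6 of 9 (66.7%), against 65.3%. The median absolute log2 fold change was 0.24 for the 9 genes and 0.21 for all genes.

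**Figure D4:**
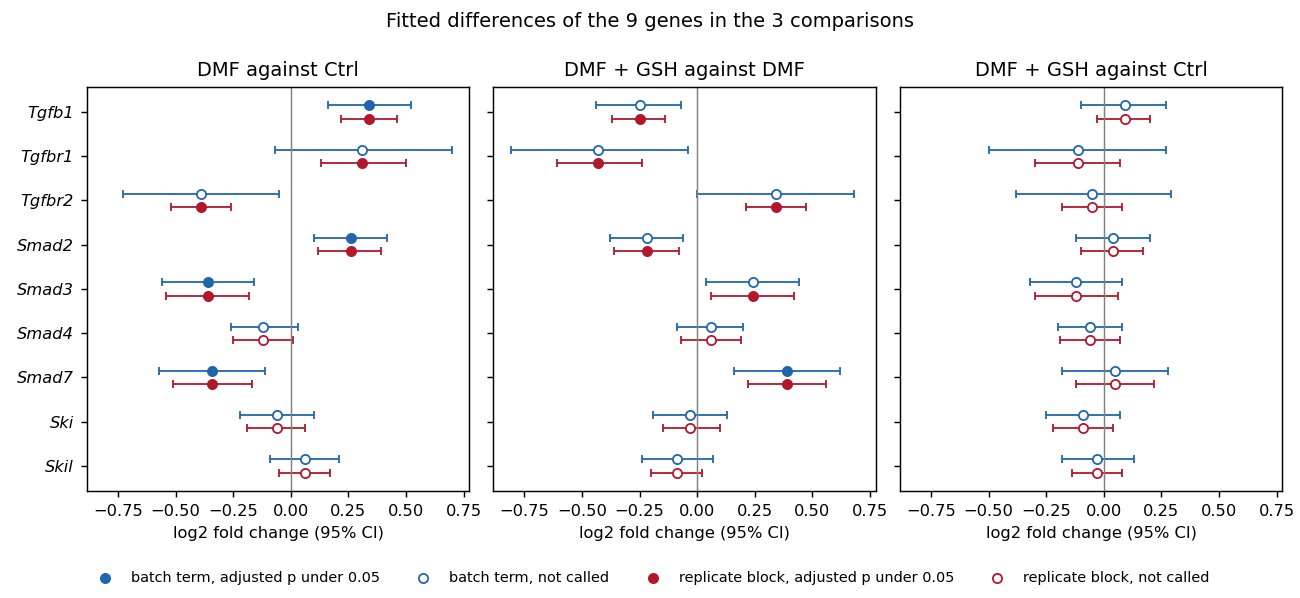
Log2 fold change with 95% CI of the 9 genes in the 3 comparisons, fitted with the batch term (blue) and with the replicate block (red); filled points have a limma adjusted p under 0.05 over all 11599 genes. The estimates are equal in both fits and the intervals are narrower with the block, most of all for Tgfbr1 and Tgfbr2, and every interval for DMF + GSH against Ctrl includes 0.

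The third comparison set DMF + GSH against Ctrl. None of the 9 genes was called by limma, with 0 at an unadjusted p under 0.05, and edgeR and DESeq2 on the recovered reads also called 0. Over all genes tested, 0% were called and 222 genes had an unadjusted p under 0.05, and with the replicate block 0.0345% were called. The fitted differences ranged from -0.12 (Smad3, CI -0.32 to 0.08) to 0.09 (Tgfb1, CI -0.10 to 0.27). Their median absolute value was 0.06, beside 0.07 over all genes. The widest interval belonged to Tgfbr1 (-0.11, CI -0.50 to 0.27), the least precise estimate of the 9. In Ski the groups did not overlap, with DMF + GSH libraries of 2387, 2465 and 2439 below Ctrl libraries of 2630, 2526 and 2608, at a difference of -0.09 (CI -0.25 to 0.07). It was the only one of the 9 (11.1%), against 4.47% of all genes.

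Around these 9 genes, 116 further genes of the family were set out in 8 lists, of which 89 passed the minimum level for the test. With DMF, 20 were called higher and 12 lower (36%), against 28.0% of all genes, and 27 higher and 25 lower with the replicate block (58.4%, against 45.0%). The lists were written with earlier results of these data known, so that their shares are descriptions. Counts in each list are given with the batch term and then with the replicate block.

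Among other ligands and the proteins that store or release TGF-β, 9 of 21 genes were tested, of which 2 rose and 1 fell with the batch term, and 4 were higher and 2 lower with the block. Tgfb3, a second TGF-β ligand, fell from 53.0, 91.0 and 32.7 normalized counts in Ctrl to 22.2, 27.4 and 14.5 with DMF, a log2 fold change of -1.34 (SE 0.361, adjusted p = 0.0228), whereas Tgfb2 was between 0 and 2.12 in the Ctrl and DMF libraries. Itgav, a chain of integrins that free latent TGF-β, rose by 0.48 (SE 0.107, adjusted p = 0.0121) from 1067 ± 167 to 1480 ± 91.2. The same list held the integrin chains Itgb8 and Itgb6. Itgb8 was not called (-0.05, adjusted p = 0.939) at a mean of 13.9, and Itgb6 was under the minimum at 0.604. Inhba, the activin A chain, rose by 1.09 at a low level, from 8.31 ± 1.81 to 18.7 ± 2.80. Lrrc32, which anchors latent TGF-β on the cell surface, had 90.4, 126 and 218 normalized counts in Ctrl and 290, 170 and 394 with DMF, and its difference of 0.98 was called with the block and not with the batch term (adjusted p = 0.121, and 0.000231 with the block). Furin, the protease that cuts the TGF-β precursor, differed by -0.32 (adjusted p = 0.0571, and 0.0027 with the block), and Nrros, another anchor of latent TGF-β, by 0.23 (0.205, and 0.043 with the block).

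Among the other receptors, 9 of 13 were tested, of which 1 rose and 2 fell with the batch term, and 3 were higher and 2 lower with the block. The activin receptor Acvr2a fell by 0.36 (fitted log2 fold change -0.36, adjusted p = 0.0289) and Acvrl1, a type I receptor best known from endothelium, fell from 94.1 ± 19.5 to 54.8 ± 8.16. The BMP receptor Bmpr2 rose by 0.51 (adjusted p = 0.0387). Tgfbr3, the co-receptor betaglycan, was not called (0.21, adjusted p = 0.189), and Bambi, a decoy receptor, was called with the block and not with the batch term (0.87, adjusted p = 0.107, and 0.00601 with the block), as was the type I receptor Acvr1 (0.49, adjusted p = 0.0942, and 0.0259 with the block).

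Of the other SMADs and the ID genes, which BMP signals raise through SMADs 1 and 5, 4 of 7 were tested and 1 fell with the batch term, and 2 were lower with the block. Id2, an inhibitor of helix-loop-helix factors, had 1247, 1329 and 1030 normalized counts in Ctrl and 614, 687 and 568 with DMF, a log2 fold change of -0.94 (SE 0.115, adjusted p = 0.00277). With DMF + GSH it was at 1159 ± 119 and differed from DMF by 0.89 (adjusted p = 0.00646). Id3 differed by -0.34 (adjusted p = 0.0597, and 0.0049 with the block). Smad1 (-0.12) and Smad5 (0.02) were not called, and Smad6, Smad9 and Id1 were under the minimum.

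The regulators that act on receptors and SMADs split evenly, with 3 higher and 3 lower among 22 tested with the batch term and 5 of each with the block. The ubiquitin ligases Smurf2 and Wwp2 fell by 0.30 and 0.27 on the log2 scale (fitted log2 fold changes -0.30 and -0.27, adjusted p = 0.0232 and 0.0165). Usp11, a deubiquitinase, fell from 582 ± 56.0 to 426 ± 25.7, and Uchl5, another one, rose from 1056 ± 173 to 1380 ± 50.7. Smurf1, the close relative of Smurf2, was not called (0.07). The calls that the block added were Fkbp1a (0.35, block adjusted p = 0.000235), which binds the type I receptor, and Usp15 (0.17, 0.0192), Rnf111 (-0.19, 0.0313) and Trim33 (-0.16, 0.0327), enzymes of the ubiquitin system.

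Nuclear partners of SMADs gave 3 higher and 3 lower among 17 tested with the batch term, and 3 higher and 8 lower with the block. The genes lower with the block alone were Rbl1 (-0.26, block adjusted p = 0.0026), Sin3a (-0.17, 0.022), Sp1 (-0.18, 0.024), Zeb1 (-0.19, 0.034) and Crebbp (-0.15, 0.046). Ep300, the histone acetyltransferase that SMAD complexes recruit, fell from 3085, 3188 and 2924 normalized counts to 2019, 1985 and 2068 (log2 fold change -0.60, SE 0.0697, adjusted p = 0.00248). Runx3, a transcription factor of CD8+ T cells, fell by 0.28 (fitted log2 fold change -0.28, adjusted p = 0.0116) and E2f4 rose by 0.29 (adjusted p = 0.0308). Atf3, a stress-induced factor, rose by 1.86 (SE 0.356, adjusted p = 0.00794) from 18.9 ± 4.55 to 78.4 ± 47.5, with DMF libraries of 132, 42.8 and 60.0. In the arm that runs through TAK1 and p38 instead of SMADs, 12 genes were tested. Map2k3, a kinase of p38, rose by 0.89 (adjusted p = 0.00649), Mapk14, which encodes p38α, fell by 0.28 (fitted log2 fold change -0.28, adjusted p = 0.0266), and 10 were not called with the batch term. With the block 2 were higher and 4 lower. The calls it added were Traf6 (0.38, block adjusted p = 0.000915), Map2k6 (-0.72, 0.00592), Shc1 (-0.22, 0.0225) and Tab2 (-0.14, 0.0422).

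Genes known to be raised by TGF-β did not move as one. Of 9 tested, 3 rose and 1 fell with the batch term, and 3 were higher and 2 lower with the block, with a median log2 fold change of -0.07. Pmepa1, a direct target that restrains the signal, rose by 0.32 (SE 0.0691, adjusted p = 0.0112), and the cell cycle inhibitor Cdkn1a rose by 0.90 (adjusted p = 0.047). Foxp3, the factor of regulatory T cells, rose from 796, 559 and 913 normalized counts to 2456, 1035 and 2325 (log2 fold change 1.29, adjusted p = 0.0221). Gpr15, a homing receptor of the large intestine, fell by 0.49 (fitted log2 fold change -0.49, adjusted p = 0.0168). Itgae, which encodes the integrin chain CD103, differed by -0.24 and was called with the block and not with the batch term (adjusted p = 0.191, and 0.00554 with the block).

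All 7 tested genes that TGF-β is known to lower in CD8+ T cells were called higher with DMF, with a median log2 fold change of 1.89. Of all genes tested, 14.6% were called higher with the batch term. Ifng rose by 2.87 (SE 0.254, adjusted p = 0.00124), from 59.2, 139 and 118 normalized counts to 706, 597 and 921. Gzmb (2.09), Eomes (2.35) and Prf1 (0.81) rose as well. The direction of several of these genes was known before the list was written, and they answer to other signals besides TGF-β, so that the list says nothing by itself about the TGF-β signal. With DMF + GSH all 7 were called lower than with DMF, with a median of -1.90, against 12.4% of all genes. None of the 89 genes was called between DMF + GSH and Ctrl. For some genes with lower estimates under DMF, the DMF + GSH estimate lay nearer to DMF than to Ctrl. DMF + GSH differed from DMF by 0.03 and from Ctrl by -0.73 in Acvrl1, and by 0.13 and -0.36 in Gpr15. In Furin, called lower with DMF by the block alone, the differences were 0.04 and -0.28. None of these differences was called, with or without the block, so that staying at the DMF level and returning to Ctrl cannot be told apart.

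**Figure D5:**
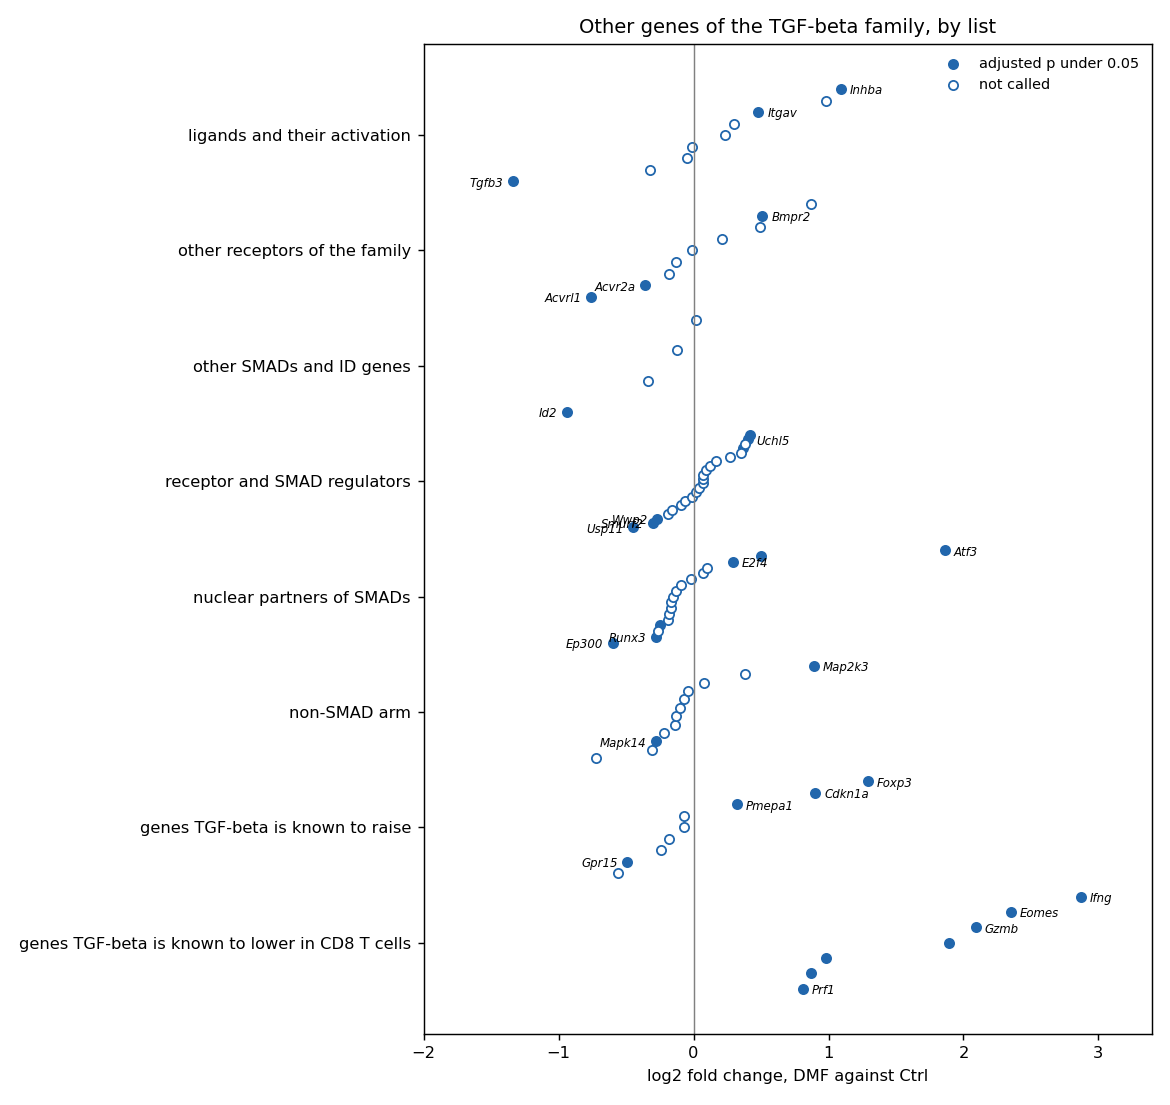
Log2 fold change with DMF against Ctrl of the 89 tested genes of the 8 lists, 1 point per gene; filled points have a limma adjusted p under 0.05 with the batch term, and up to 4 called genes per list are named. Called genes lie on both sides of 0 in 6 of the 8 lists, Id2 is the only called gene of its list, and all 7 genes that TGF-β is known to lower lie to the right.

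Of the 25 genes named from the lists under the rule for called genes, the fit with the batch term lost 18 when Ctrl replicate 1 was left out and 13 when Ctrl replicate 2 was. It lost 19 when the DMF library of replicate 1 was left out and 15 when that of replicate 3 was. With the replicate block all 25 were called, and at most 1 was lost when any 1 library was left out.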

How the data were processed

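The 9 members and the 8 lists around them were chosen with earlier results of these data known. The authors sequenced single reads of 50 bases from poly(A) libraries, aligned them to Ensembl GRCm38 (annotation release 76) with STAR 2.4.0b and counted reads per gene with featureCounts. The sources used here do not state the use of strand in counting, and the library kit named does not mark it. The deposited signal values are these counts divided by a factor for each library. Whole reads were recovered from the smallest step of every library for 100% of the values (tolerance 0.01). Methods and labels differ in the RNA input, the limit on RNA integrity and the extraction reagent. The authors' columns of fold change and p-value were not used.

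The test was limma-trend (limma 3.58.1, R 4.3.3) on log2(normalized count + 1). The model held group and preparation batch and was fitted over genes with a mean of at least 10 (11599 of 41388) in all 9 libraries at once, with Benjamini-Hochberg adjustment over these genes. It was first tested on simulated data. Replicate numbers paired the samples, which was read from the data and the labels: after subtraction of group means, the correlation over genes was 0.447 to 0.578 for the 9 pairs of libraries that share a number and at most -0.0621 for the other pairs. The fit with the replicate block is therefore given where it changes a call described here. Alternatives were pseudocounts of 0.5 and 4, no minimum and a minimum of 50, TMM and quantile scaling, no batch term, the block, only the 6 libraries compared, robust eBayes, edgeR 4.0.16 and DESeq2 1.42.0 on the recovered reads, and each library left out. The receptor ratio was added after seeing the data. Named from each list were up to 4 called genes with the smallest p, and genes whose role decides how the list reads. Positions and exon lengths are from GENCODE vM21, which held 40254 of the 41388 identifiers. Figures were drawn with Matplotlib 3.10.9.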

Additional observations from a re-analysis of the deposited data

How the results depend on the processing

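The number of members called for DMF against Ctrl, 4, became 2 without the batch term (with 23.9% of all genes called), 3 with no minimum (10.6%) or with only the 6 libraries compared (23.6%), where Smad2 was lost (adjusted p = 0.0577 and 0.0515), and 5 with DESeq2 (26.5%, Tgfbr2 gained). It ranged from 0 to 5 when each library was left out, while the share of all genes called ranged from 0.948% to 32.7%. For DMF + GSH against DMF, the 1 call became 6 with the replicate block, by limma (41.5% of all genes) and by edgeR (42%), 3 with a minimum mean of 50 (26% of all genes called) or with DESeq2 (22.4%), 2 with only the 6 libraries compared (19.2%) or with robust eBayes (22.7%), and 0 without the batch term (18.5%), and it ranged from 0 to 3 when each library was left out, with 0.0862% to 26.7% of all genes called. The cause was not tested. With the replicate block the pairing gave 6 calls in both comparisons with DMF, and 5 or 6 when each library was left out. Directions of all 9 genes held for DMF against Ctrl in every alternative. Ski for DMF + GSH against DMF turned to 0.02 under quantile scaling and ranged from -0.09 to 0.05 over the leave-outs. For DMF + GSH against Ctrl, where no gene was called, the leave-outs crossed 0 for Tgfbr1 (-0.23 to 0.01), Tgfbr2 (-0.19 to 0.10), Smad2 (-0.01 to 0.07), Smad7 (-0.04 to 0.14) and Skil (-0.09 to 0.01). The median change of all genes stayed between -0.053 and 0.018 in each alternative, so that no scaling moved it by over 0.1. With 3 libraries a group, changes as small as those of Smad4, Ski and Skil cannot be told from 0.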
